A study of Solanum lycopersicum with 12 samples.

Results

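The genes described here had less transcript in slnor tomato fruit than in wild-type (WT) fruit at the breaker stage and stood at similar levels in both genotypes 7 days later. They were chosen from a table of 34075 genes by CPM (the count divided by the library total, times 1e6), averaged over 3 libraries per group, with 0.5 added to each group mean. A gene was kept if that sum was at least 5.5 in WT at breaker, if the ratio of slnor to WT was at most 0.5 at breaker, and if the same ratio lay between 0.67 and 1.5 at breaker + 7 days. The first condition left 12815 genes, the second left 402 of them, and 125 met all 3.

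The 12 libraries came from fruit of the tomato cultivar Ailsa Craig, 3 in each of 4 groups: slnor at breaker + 7 days, WT at breaker + 7 days, slnor at breaker and WT at breaker. slnor plants have the Ailsa Craig background and a CRISPR mutation of the gene for the NAC-domain transcription factor NOR, and all plants shared a greenhouse regime. The labels name 1 mutant and do not describe its edit, the part of the fruit sampled, or how breaker was judged in mutant fruit. They do not say that replicates were separate plants, and each p-value therefore reflects the spread among libraries alone, which may be technical.

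Tomato ripens in a burst of ethylene, during which chloroplasts turn into chromoplasts, chlorophyll is lost, lycopene accumulates and cell walls soften. Breaker is the stage at which the first change of colour shows. NOR, the MADS-box factor RIN and the factor CNR are known as regulators of this programme, and RIN is known to act in complexes with MADS-box proteins of the FRUITFULL family. Carotenoids are built from phytoene through zeta-carotene to lycopene, and cyclases and hydroxylases then convert lycopene into carotenes and xanthophylls.

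Library totals ran from 50714230 to 69124795 counts, and no replicate pair was as close as counting noise alone would make it (the chi-square statistic divided by its degrees of freedom was 4.66 to 14.2). NOR transcript (Solyc10g006880.3) was present throughout, at 522 to 589 CPM in slnor and 435 to 456 CPM in WT at breaker + 7 days, and at 841 to 959 CPM in slnor and 916 to 935 CPM in WT at breaker. A small edit need not change transcript abundance, so these values do not check the genotype. In libraries of whole tissue, fewer cells of a type and less RNA per cell cannot be told apart.

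The working name given to these genes, delayed in slnor and catching up later, did not describe the change of most of them between the stages sampled. Levels between or after these stages were not measured, so a delay as such was not tested. In 109 of the 125 genes (87.2%) the later WT level was at most 0.67 times the WT breaker level, so the ratios came together while WT fell. The same fall was seen in 17.7% of all 12815 genes with at least 5 CPM in WT at breaker. Only 16 genes kept or raised their WT level, and these 16 include the MADS-box gene FUL1 and the carotenoid genes ZISO and BCH2. The genes are therefore named below by the rule, as low in slnor at breaker and alike later.

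A stage class was given to each gene by the ratio of breaker + 7 days to breaker in group mean CPM + 0.5. A gene fell if the ratio was at most 0.67, rose if it was at least 1.5, and held in between. In WT, 109 genes fell, 15 held and 1 rose. In slnor, 46 fell, 59 held and 20 rose (36.8%, 47.2% and 16.0%). Of all 12815 genes with at least 5 CPM in WT at breaker, 11.5% fell, 83.4% held and 5.04% rose in slnor. In WT, 17.7% of these 12815 fell, 71.6% held and 10.7% rose. Among the 109 that fell in WT, 46 also fell in slnor, 57 held and 6 rose. Among the 15 that held in WT, 13 rose in slnor and 2 held, and the 1 that rose in WT rose in slnor too.

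The chosen genes took 0.866% of all counts in slnor and 0.954% in WT at breaker + 7 days, and 0.766% in slnor and 1.82% in WT at breaker. Their median level was 9.81 CPM in slnor and 9.7 CPM in WT at breaker + 7 days, and 8.91 CPM in slnor and 30.6 CPM in WT at breaker. The median slnor level was thus similar at both stages, and the WT median was the one that differed. The later-to-breaker ratio ran from 0.122 to 8.48 in slnor (median 0.807) and from 0.0274 to 1.51 in WT (median 0.276).

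**Figure D1:**
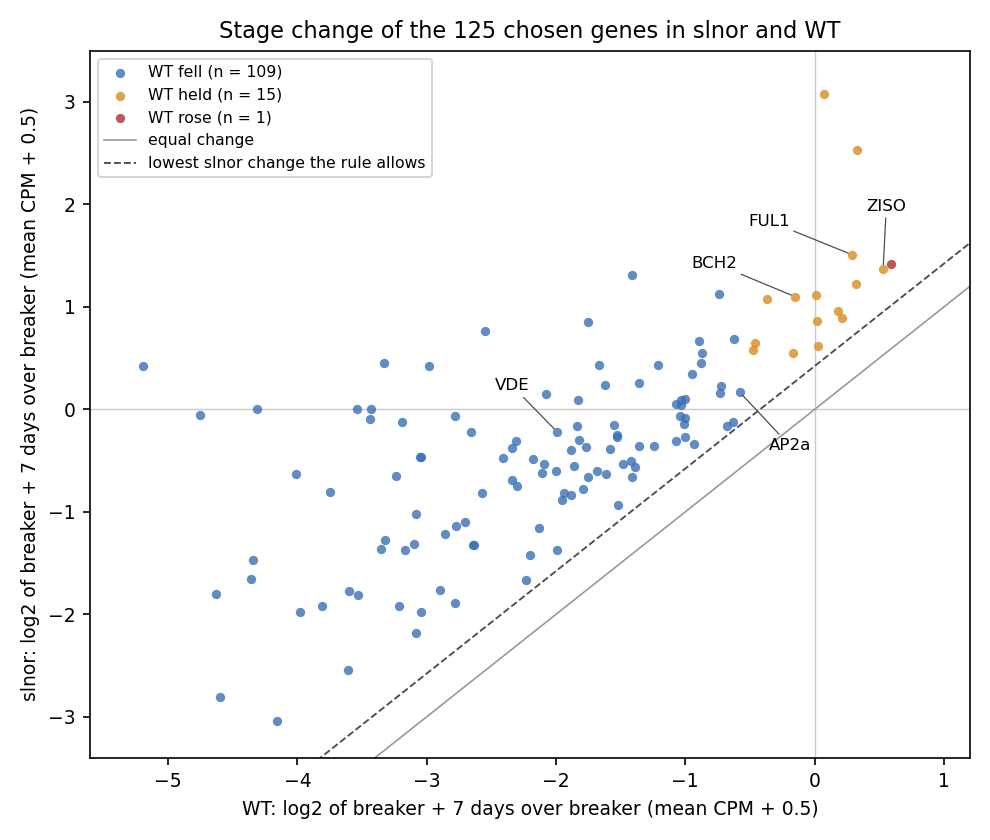
Each point is 1 of the 125 chosen genes, placed by its log2 ratio of breaker + 7 days to breaker in WT (horizontal) and slnor (vertical), both from group mean CPM + 0.5. The rule places every point above the dashed line. The 109 genes that fell in WT lie left of 0 on the horizontal axis, and FUL1, ZISO and BCH2 are among the 16 others.

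The distance between genotypes on the log2 scale can be divided into what WT lost and what slnor gained between the stages. The WT part was larger in 107 genes and the slnor part in 18. Over all 125 genes the median slnor part was −0.31 and the median WT part 1.86. The slnor level was lower at the later stage in 81 genes and higher in 41. The 18 were the 16 genes that held or rose in WT and 2 of those that fell.

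Tests were made with edgeR's quasi-likelihood test on all 20070 genes that passed the low-count filter, with Benjamini-Hochberg adjustment and a threshold of 0.05. All 125 chosen genes passed the filter. The fit scaled each library by a TMM factor, whereas CPM used library totals alone. Small log2 differences from the fit can therefore differ in sign from ratios of CPM. Over the 7 days in WT, 113 of the 125 were lower and 6 higher, where 32.1% of all tested genes were lower and 33.2% higher. The median log2 fold change was −1.87 for the chosen genes and 0.00 for all. This contrast is not a ratio in the rule, but its 6 libraries entered the rule, and a high WT breaker level helps a gene to be chosen. The count is a description and not independent support.

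In slnor, 62 of the 125 were lower and 38 higher at breaker + 7 days than at breaker, where 26.0% of all tested genes were lower and 26.2% higher. The median log2 fold change was −0.27 for the chosen genes and −0.01 for all. The rule sets a lower limit on this change for a given WT change, so no support is drawn from it. All 46 genes of the falling slnor class were among the 62, and all 20 of the rising class were among the 38.

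Later slnor fruit were also set against WT fruit at breaker, to see whether slnor reached that level after 7 days. Here 116 of the 125 were lower in late slnor fruit and 3 higher, where 30.1% of all tested genes were lower and 30.1% higher. The median ratio of group means + 0.5 was 0.276, and it ran from 0.0263 to 1.31. By the class limits, late slnor stood at no more than 0.67 of WT at breaker in 109 genes and between 0.67 and 1.5 in 16. Of all 12815 genes with at least 5 CPM in WT at breaker, 1586 and 9624 were so placed. Both groups entered the rule, which favours a high WT level at breaker, so the counts of the 125 too are descriptions and not independent support. The 3 called higher were ZISO, FUL1 and the unnamed Solyc03g005020.3.

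The genotype contrasts were used by the rule, so the edgeR calls given for them are descriptions and not tests. At breaker, edgeR called all 125 lower in slnor and 0 higher, where 23.7% of all tested genes were lower and 25.6% higher. The breaker limit of the rule nearly fixes this call of all 125. At breaker + 7 days it called 49 lower and 24 higher, where 27.4% and 28.5% were. In 54 of the 125 the later libraries of the genotypes overlapped, but this was not counted over all genes. Similar levels within the window of the rule are thus not the same as no difference. None of the chosen genes had overlapping CPM between the genotypes at breaker, which the breaker limit of the rule also nearly fixes.

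**Figure D2:**
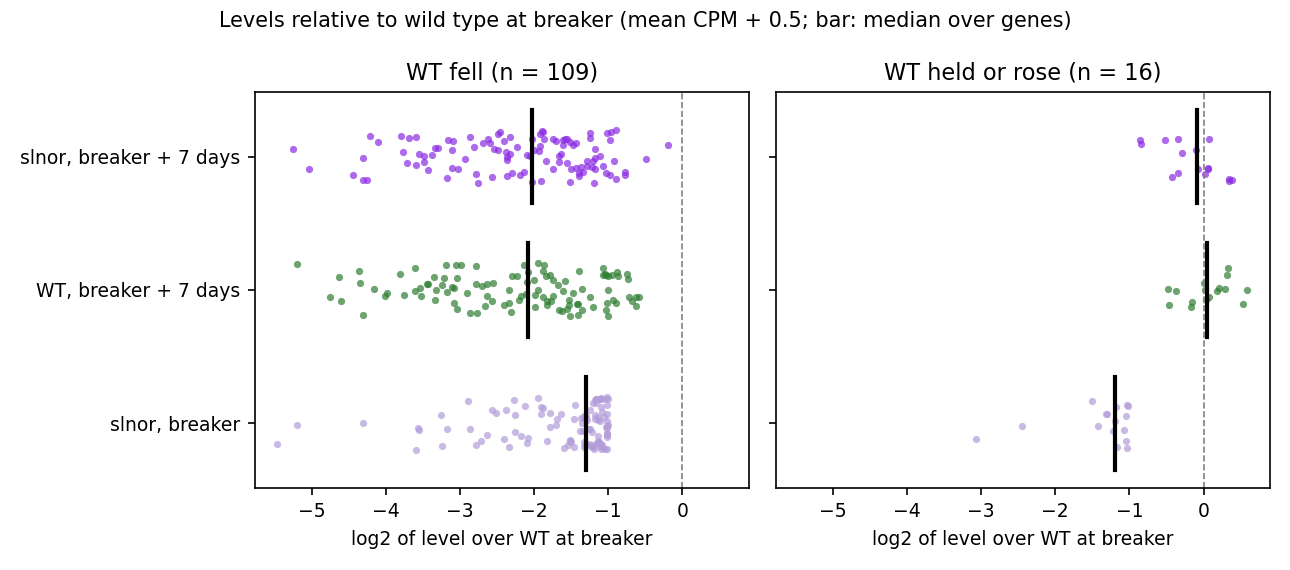
Points are genes and show the log2 of group mean CPM + 0.5 over that of WT at breaker (dashed line at 0), for the 109 genes that fell in WT (left) and the 16 that held or rose (right); black bars are medians over genes. On the left the medians of both later groups lie below that of slnor at breaker; on the right they lie near the WT breaker level.

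In the 16 genes that held or rose in WT, slnor was higher at the later stage. Their slnor ratio between the stages ran from 1.46 to 8.48, with a median of 2.13. In slnor, edgeR called all 16 higher at the later stage, where 26.2% of all tested genes were higher. Where WT did not fall, the limits of the rule leave little room for a fall in slnor. The call of all 16 is therefore a description and not independent support. Late slnor stood at 0.553 to 1.31 times WT at breaker, with a median of 0.941. Their median levels were 33.6 CPM in slnor and 40.8 CPM in WT at breaker + 7 days, and 15.2 CPM in slnor and 39.4 CPM in WT at breaker. In WT itself, 6 of the 16 were higher with stage, 4 lower and 6 did not pass. Of all tested genes, 33.2% were higher and 32.1% lower in WT.

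FUL1 (Solyc06g069430.3) is a FRUITFULL-type MADS-box transcription factor gene of ripening fruit. Its libraries stood at 700.3, 714 and 714 CPM in slnor and 691, 699 and 673 CPM in WT at breaker + 7 days. The breaker libraries held 259, 234 and 256 CPM in slnor and 573, 557 and 552 CPM in WT. The slnor breaker libraries were the lowest of the 12, and the later libraries of both genotypes lay above all WT breaker libraries. In slnor the level was 1.60 higher on the log2 scale at the later stage (SE 0.0392). In WT it was 0.31 higher (SE 0.0382, adjusted p = 1.91e-06), and late slnor was 0.25 above WT at breaker (SE 0.0382, adjusted p = 2.05e-05).

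The identifier next to FUL1, Solyc06g069420.3, is also among the 125 and was singled out after its values were seen. It stood at 32.3, 32.9 and 31.2 CPM in slnor and 37.0, 38.4 and 39.2 CPM in WT at breaker + 7 days. At breaker, levels were 5.0, 4.75 and 5.74 CPM in slnor and 32, 30.5 and 28.6 CPM in WT. Late slnor libraries thus lay at the WT breaker level, with a log2 difference of −0.01 (SE 0.0636, adjusted p = 0.954). Its slnor ratio between the stages was 5.76 against 2.84 for FUL1. The sources used here do not say whether counting used strand, so reads of neighbouring genes that overlap cannot be told apart.

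ZISO (Solyc12g098710.2) encodes zeta-carotene isomerase, which acts on the path from phytoene to lycopene. It stood at 1747, 1746 and 1672 CPM in slnor and 2067, 1943 and 1897 CPM in WT at breaker + 7 days. The breaker libraries held 666, 637 and 696 CPM in slnor and 1369.9, 1349.8 and 1359 CPM in WT. The late slnor libraries lay below the late WT libraries and above all WT breaker libraries. The log2 change with stage was 1.46 in slnor (SE 0.0388) and 0.55 in WT (SE 0.0381, adjusted p = 1.28e-09), and late slnor exceeded WT at breaker by 0.26 (SE 0.038, adjusted p = 1.86e-05). Per length, its mean was 1137 FPKM in slnor and 1302 FPKM in WT at breaker + 7 days, and 440.2 FPKM in slnor and 899 FPKM in WT at breaker.

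BCH2 (Solyc03g007960.3) encodes a beta-carotene hydroxylase, which forms xanthophylls. It stood at 49.3, 51.7 and 50.2 CPM in slnor and 45.1, 45.9 and 39.3 CPM in WT at breaker + 7 days. At breaker, levels were 23.8, 23.6 and 22.0 CPM in slnor and 45.5, 51.1 and 48.6 CPM in WT. The late slnor libraries overlapped those of WT at breaker, with a log2 difference of −0.03 (SE 0.0581, adjusted p = 0.71). The log2 change with stage was 1.21 in slnor (SE 0.0603). In WT it was −0.14 (SE 0.0583, adjusted p = 0.0411), a call that was lost in 5 of the fits without 1 library, with adjusted p from 0.0187 to 0.254 over all alternatives.

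Of the genes with no name in the tables used, the only one to rise in WT was Solyc03g005020.3. It stood at 775, 799 and 832 CPM in slnor and 940.4, 903 and 916 CPM in WT at breaker + 7 days. The breaker libraries held 307, 290.1 and 302 CPM in slnor and 601, 609 and 622 CPM in WT. Like ZISO, it ended below late WT and above WT at breaker, by 0.31 on the log2 scale (SE 0.0341, adjusted p = 6.1e-07). Its change with stage was 1.51 in slnor (SE 0.035) and 0.61 in WT (SE 0.0342, adjusted p = 8.45e-11).

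Among the unnamed genes that held in WT, the most abundant were Solyc10g081720.2 and Solyc10g076600.2. Solyc10g081720.2 stood at 145, 151 and 152 CPM in slnor and 113, 109 and 109 CPM in WT at breaker + 7 days, and at 67.2, 73.6 and 69.8 CPM in slnor and 142, 144 and 142 CPM in WT at breaker. In CPM, its late slnor libraries lay slightly above those of WT at breaker. The log2 difference in the edgeR fit was −0.02 (SE 0.0358, adjusted p = 0.619), while WT itself had dropped by 0.36 (SE 0.036, adjusted p = 1.57e-07). Solyc10g076600.2 stood at 106, 104 and 109 CPM in slnor and 149, 154 and 149 CPM in WT at breaker + 7 days, and at 55.7, 61.8 and 54.1 CPM in slnor and 127, 130.3 and 133 CPM in WT at breaker. It stayed short of WT at breaker in late slnor fruit, with a log2 difference of −0.37 (SE 0.0421, adjusted p = 6.97e-07).

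Solyc05g051425.2 had the largest ratio between the stages in slnor, 8.48, and was singled out for it. It stood at 10.5, 9.54 and 11.3 CPM in slnor and 11.1, 12 and 9.54 CPM in WT at breaker + 7 days. At breaker, levels were 0.583, 0.594 and 1.2 CPM in slnor and 10.3, 11.1 and 9.64 CPM in WT. The 9 libraries outside slnor at breaker overlapped, and the WT change with stage was 0.09 on the log2 scale (SE 0.148, adjusted p = 0.619). The other 8 of the 16 have no name in the tables used, and their WT breaker means ran from 5.52 to 64.0 CPM.

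**Figure D3:**
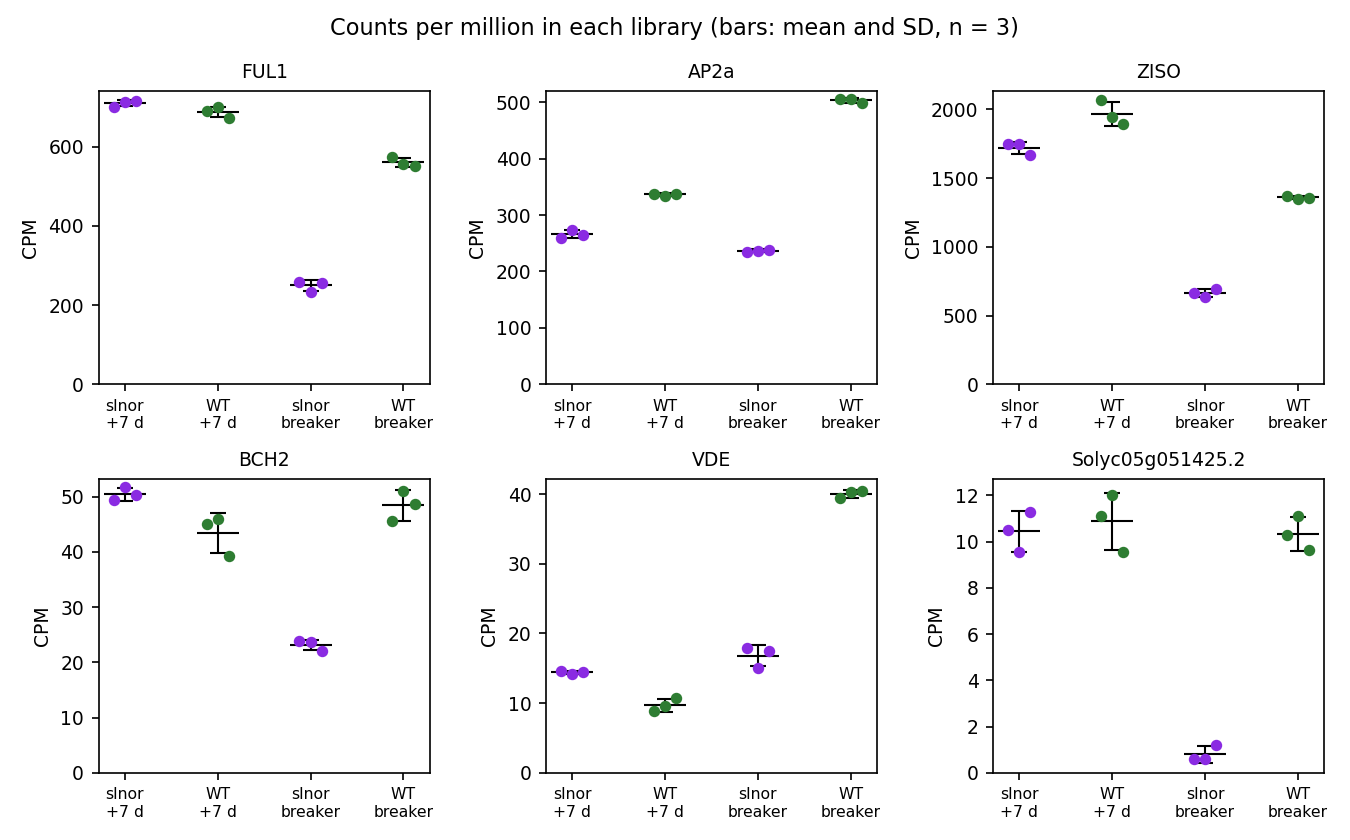
CPM of each library (points) with the group mean and SD (bars, n = 3) for the 5 named genes and Solyc05g051425.2, each on its own axis from 0. In FUL1, ZISO, BCH2 and Solyc05g051425.2 the 3 slnor breaker libraries are the lowest; in AP2a and VDE the 3 WT breaker libraries stand above all the others.

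In the 109 genes that fell in WT, both genotypes ended low. Their median was 6.06 CPM in slnor and 6.89 CPM in WT at breaker + 7 days, and 8.84 CPM in slnor and 30.6 CPM in WT at breaker. The class was defined by the WT ratio, so the edgeR call of all 109 as lower with stage in WT restates it. The upper limit on the later ratio then nearly fixes the call of all 109 as lower in late slnor than in WT at breaker. In slnor, edgeR called 62 lower and 22 higher with stage, where 26.0% of all tested genes were lower and 26.2% higher. AP2a and VDE are the named genes of this class.

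AP2a (Solyc03g044300.3) encodes an AP2-type transcription factor known to restrain ethylene production and ripening. It stood at 259, 274 and 265 CPM in slnor and 338, 334 and 338 CPM in WT at breaker + 7 days. The breaker libraries held 234, 237 and 239 CPM in slnor and 506, 506 and 499 CPM in WT. The slnor libraries of both stages lay below all WT libraries, and the WT libraries of the later stage lay between. The log2 change with stage was −0.57 in WT (SE 0.0292, adjusted p = 2.48e-11) and 0.26 in slnor (SE 0.0294). Late slnor was 1.01 below WT at breaker on that scale (log2 difference −1.01, SE 0.0295, adjusted p = 1.84e-14). Its WT ratio of 0.669 lay just inside the limit for a fall.

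VDE (Solyc04g050930.3) encodes violaxanthin de-epoxidase, an enzyme of the xanthophyll cycle that protects chloroplasts in strong light. It stood at 14.6, 14.2 and 14.5 CPM in slnor and 8.85, 9.53 and 10.7 CPM in WT at breaker + 7 days. At breaker, levels were 17.9, 15.1 and 17.5 CPM in slnor and 39.4, 40.3 and 40.4 CPM in WT. Late WT libraries were the lowest of the 12, and WT breaker libraries the highest. The log2 change with stage was −2.03 in WT (SE 0.0779, adjusted p = 4.92e-13) and −0.14 in slnor (SE 0.0767). Late slnor stood at −1.56 relative to WT at breaker (SE 0.0756, adjusted p = 1.3e-11). Its later slnor-to-WT ratio of 1.46 was close to the upper limit of the rule, and its late libraries did not overlap between genotypes.

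The most abundant gene of all 125, Solyc05g010420.2, had no name in the tables used. It stood at 922, 916 and 985 CPM in slnor and 1148, 1117 and 1114 CPM in WT at breaker + 7 days. The breaker libraries held 1532, 1481 and 1452 CPM in slnor and 2921, 3071 and 2987 CPM in WT. It fell in slnor, by 0.57 on the log2 scale (SE 0.0328), and in WT, by 1.40 (SE 0.0332, adjusted p = 9.29e-16), so the later likeness was reached at a level below that of slnor at breaker.

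Solyc12g056940.2, next in abundance among the unnamed genes of this class, moved in opposite directions. It stood at 539.7, 533 and 542 CPM in slnor and 604, 565 and 598 CPM in WT at breaker + 7 days. At breaker, levels were 342, 317 and 355 CPM in slnor and 1040.0, 1128 and 1099.7 CPM in WT. Late levels thus lay between the breaker levels of the genotypes. The log2 change was 0.76 in slnor (SE 0.0439) and −0.87 in WT (SE 0.0437, adjusted p = 1.65e-11). It is 1 of the 6 genes that fell in WT and rose in slnor, and late slnor stood at 0.188 to 0.873 times WT at breaker in these 6.

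Some genes met the later condition because they were nearly silent in both genotypes. In 23 of the 125 the later mean was under 1 CPM in slnor and in WT, and there the added 0.5 pulls the ratio towards 1. Not all of the 23 needed it: Solyc06g084050.4 had later means of 0.321 CPM in slnor and 0.302 CPM in WT. Solyc01g095960.4, singled out after its values were seen, had 9.82, 10.1 and 8.27 CPM in WT at breaker and no count in the other 9 libraries. With a floor of 3 counts over a group, it was at least 573-fold lower in slnor and at least 585-fold lower in WT at breaker + 7 days, and at least 556-fold lower in slnor at breaker, than in WT at breaker. Solyc08g083190.3 had the lowest breaker ratio of all, 0.0226, with no count in slnor against 20.0, 22.5 and 22.2 CPM in WT. At breaker + 7 days it had 0.0619, 0.449 and 0 CPM in slnor and 0.0723, 0 and 0.24 CPM in WT. Without the added constant, and with a level of at least 5 CPM, the rule chose 111 genes, 104 of them among the 125, and 85.6% of the 111 fell in WT.

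The 402 genes that were low in slnor at breaker were divided by the later ratio into the 125, 188 that were still below 0.67 of WT, and 89 that were above 1.5 of WT. WT fell in 87.2% of the 125, in 34.6% of the 188, in 98.9% of the 89, and in 17.7% of all 12815 genes of that level. The median log2 ratio of breaker + 7 days to breaker in WT was −1.86 in the 125, −0.16 in the 188, −3.05 in the 89 and 0.02 in the 12815. The slnor medians were close together, at −0.31, 0.03, −0.05 and −0.07. The later ratio that divides these sets contains the late levels of both WT and slnor. Differences between the sets therefore follow in part from the division, and no test was made.

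WT rose in 0.8% of the 125, in 25.0% of the 188, in 0.0% of the 89 and in 10.7% of all genes of that level. Late slnor lay between 0.67 and 1.5 times WT at breaker in 16 of the 125, 14 of the 188 and 5 of the 89, and at 1.5 times or more in 0, 8 and 1 of them. Genes that reached the WT breaker level late in slnor were thus found also among those still below WT of the same stage.

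**Figure D4:**
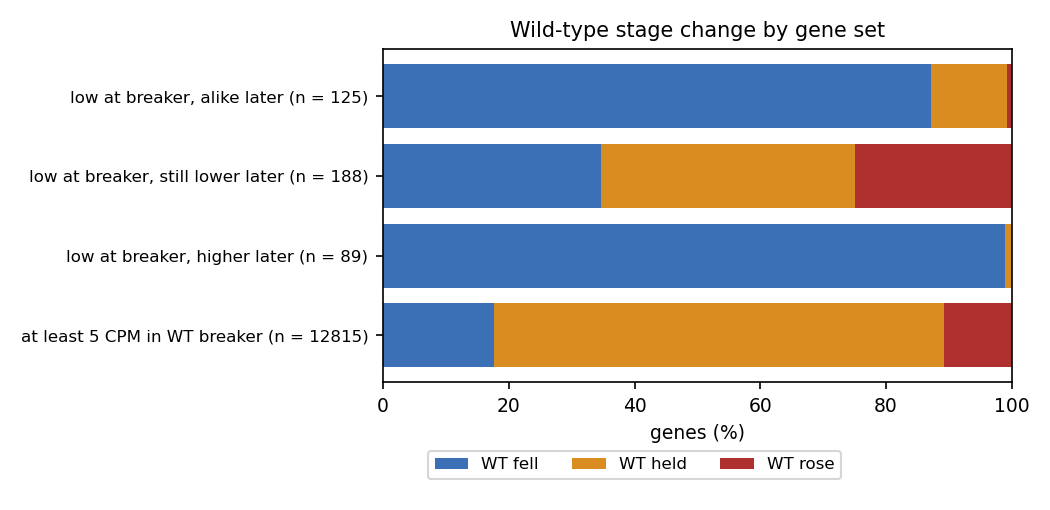
Share of genes (%, horizontal) that fell, held or rose in WT from breaker to breaker + 7 days, for the 125 chosen genes, the 188 still lower and the 89 higher in slnor later, and all 12815 genes with at least 5 CPM in WT at breaker. The falling share is 87.2%, 34.6%, 98.9% and 17.7% from top to bottom.

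Of the 5 named genes, 2 are ripening transcription factors. In a list of 12 such genes, 11 had at least 5 CPM in WT at breaker, and FUL1 and AP2a were the 2 below the breaker limit. RIN, which missed it, had a breaker ratio of 0.54, with means of 652 CPM in slnor and 795 CPM in WT at breaker + 7 days, and 322 CPM in slnor and 596 CPM in WT at breaker. The fruit MADS-box gene TAGL1 (Solyc07g055920.4) had a breaker ratio of 0.521. With stage, 6 of the 12 were higher and 4 lower in slnor, where 26.2% of all tested genes were higher and 26.0% lower. In WT, 3 were higher and 8 lower, where the shares were 33.2% and 32.1%.

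Among 11 genes from the plastid isoprenoid steps to lycopene, 8 were higher and 1 lower with stage in slnor (26.2% and 26.0% of all tested genes). In WT, 5 were higher and 3 lower (33.2% and 32.1% of all tested genes). ZISO was the only one of the 11 to meet the rule. GGPS2 (Solyc04g079960.1), which supplies the precursor geranylgeranyl diphosphate, was also low at breaker and stayed low, at 10.8 CPM in slnor and 67.9 CPM in WT at breaker + 7 days, and at 25.1 CPM in slnor and 118 CPM in WT at breaker. PSY1 (Solyc03g031860.3), the fruit phytoene synthase gene, had a breaker ratio of 0.617 and a later ratio of 0.795. PDS (Solyc03g123760.3), ZDS (Solyc01g097810.3) and CRTISO (Solyc10g081650.2), which carry phytoene on to lycopene with ZISO, had breaker ratios of 0.796, 0.942 and 0.929. ZISO had the lowest breaker ratio of the steps from phytoene to lycopene, at 0.490. The rule chose on this ratio, so this rank follows from ZISO being the only one of them chosen.

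Among 9 genes of the steps after lycopene, 4 were higher and 4 lower with stage in slnor (26.2% and 26.0% of all tested genes), and 2 higher and 6 lower in WT (33.2% and 32.1%). BCH2 and VDE were the 2 of the 9 below the breaker limit. The other beta-carotene hydroxylase gene, CrtR-b1 (Solyc06g036260.3), had a breaker ratio of 0.555 and a later ratio of 0.597, with means of 71.3 CPM in slnor and 120 CPM in WT at breaker + 7 days, and 36.0 CPM in slnor and 65.3 CPM in WT at breaker. BCH2 alone of the pair met the later condition, which its choice by the rule required.

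Over all 15 lists, 80 of 91 genes in the table had at least 5 CPM in WT at breaker, 20 were below the breaker limit, and 5 of these met the rule, 9 stayed low and 6 were higher later. Of all 12815 genes of that level, 402 were below the breaker limit, and 125 of these met the rule, 188 stayed low and 89 were higher later. All 4 low cell wall genes stayed low, and all 4 low flavonoid genes were higher in slnor later. No gene of ethylene synthesis, ethylene perception and response, cell wall softening or flavonoid synthesis met the rule. Since only 125 of the 12815 did, absence from lists this short says little about these processes.

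The 125 genes were spread over all 12 chromosomes, read from the identifiers. They made up 0.46% of the genes of at least 5 CPM on chromosome 4 and 1.42% of those on chromosome 6, the extremes, and 23 lay on chromosome 1. Their median length, implied by counts and FPKM, was 1461 bases against 1668 for all 12815 genes of that level, and their median WT breaker level was 30.6 CPM against 29.6 CPM.

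In identifier order, 5 of the 120 unnamed genes (4.17%) lay next to a gene of the lists, against 80 of 12615 others of at least 5 CPM (0.634%). They lay next to MAN4a, ACS2, PSY1, E4 and FUL1, whose ripening roles are in wall breakdown, ethylene synthesis, carotenoid synthesis, ethylene response and transcription. Next to PSY1, Solyc03g031850.1 had means of 12.5 CPM in slnor and 14.3 CPM in WT at breaker + 7 days, and 17.9 CPM in slnor and 39.2 CPM in WT at breaker. Next to MAN4a (Solyc01g008710.5.1), an endo-mannanase gene, Solyc01g008700.4 had 26.3 CPM in slnor and 34.9 CPM in WT at breaker + 7 days, and 71.1 CPM in slnor and 161.8 CPM in WT at breaker. MAN4a itself had 38.7 CPM in slnor and 80.8 CPM in WT at breaker + 7 days, and 62.2 CPM in slnor and 1382 CPM in WT at breaker. Whether reads of the abundant neighbours were counted in these genes was not tested.

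In a further count, genes of the lists were not counted themselves but were kept as possible neighbours. Here 7 of the 120 (5.83%) lay next to a chosen gene, against 121 of the 12615 others of at least 5 CPM (0.959%). The 7 include Solyc06g069420.3, whose chosen neighbour is FUL1 and which was also counted above as next to a list gene. On chromosome 8, Solyc08g076780.2 and Solyc08g076800.4 flank Solyc08g076790.3, which missed the rule with a later ratio of 1.51. Solyc08g076790.3 had means of 21.2 CPM in slnor and 13.9 CPM in WT at breaker + 7 days, and 12.7 CPM in slnor and 127 CPM in WT at breaker. The flanking genes were also highest in WT at breaker, at 14.1 CPM for Solyc08g076780.2 and 10.6 CPM for Solyc08g076800.4, and the order of the other groups differed among the 3 genes.

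Markers of other tissues also differed between the groups, and none of them is among the 125. A single seed marker (Solyc06g060840.1) stood at 0.181 to 0.691 CPM in slnor and 13.5 to 15.5 CPM in WT at breaker + 7 days, and at 6.82 to 7.94 CPM in slnor and 64.7 to 71.4 CPM in WT at breaker. The identity of this marker did not pass the check of names described below. The sum of 3 cuticle genes, markers of the epidermis, stood at 112 to 119 CPM in slnor and 55.4 to 58.3 CPM in WT at breaker + 7 days, and at 78.4 to 84.0 CPM in slnor and 273.5 to 288 CPM in WT at breaker. Nearly all of it was the wax gene CER6 (Solyc02g085870.3). The others, which act in cutin synthesis, were instead highest in late slnor. CD1 (Solyc11g006250.2) averaged 4.5 CPM in slnor and 0.0241 CPM in WT at breaker + 7 days, with no count in 2 of the 3 late WT libraries, and 2.79 CPM in slnor and 0.71 CPM in WT at breaker. GPAT6 (Solyc09g014350.3) averaged 1.77 CPM in slnor and 0.282 CPM in WT at breaker + 7 days, and 1.17 CPM in slnor and 0.361 CPM in WT at breaker. The sum of 4 photosynthesis genes, markers of green tissue, stood at 257 to 266 CPM in slnor and 205 to 212 CPM in WT at breaker + 7 days, and at 648 to 707 CPM in slnor and 739.5 to 795 CPM in WT at breaker. Within this sum the Rubisco gene RBCS-2A (Solyc03g034220.3) went the other way at breaker, with 307.8 CPM in slnor and 212.5 CPM in WT. The seed marker and both sums were thus highest in WT at breaker, though single genes in the sums were not, and their part in the result was not tested.

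To see how far the choice holds in libraries it did not use, genes were chosen again with 1 replicate number left out of all 4 groups. This gave 124, 126 and 123 genes. In the left-out libraries 104, 106 and 96 of them had a breaker ratio of at most 0.5, 102, 106 and 111 had a later ratio within the window, and 85, 88 and 85 (68.5%, 69.8% and 69.1%) met both. In the same left-out libraries WT fell in 110, 107 and 102 of them (88.7%, 84.9% and 82.9%).

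Nearest to the breaker limit, Solyc03g025840.3 was inside with a breaker ratio of 0.4996 and Solyc10g080890.2 outside with 0.5012. The lowest later ratio inside was 0.682 (Solyc11g073160.3) and the nearest outside 0.6673 (Solyc04g079530.3), while the highest inside was 1.496 (Solyc01g088390.3) and the nearest outside 1.51 (Solyc08g076790.3). At the limit on level, Solyc08g067590.1 was inside at 5.513 and Solyc01g105620.4 outside at 5.451, in WT breaker mean CPM + 0.5.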

How the data were processed

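The authors deposited raw counts per gene for the 12 libraries, and 1 table per library in a unit taken here to be FPKM, since count divided by FPKM and library total gave the same length (within 1%) for 100.0% of 7290 genes. Per the submitters' processing notes, HISAT, UMI-tools, StringTie and edgeR were used; the sources used here give no version, genome build, annotation or strand setting. The number of per-sample columns left unused was 0.

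CPM used column totals. edgeR 4.0.16 in R 4.3.3 was fitted to the counts of all 12 libraries as 4 group means, with TMM scaling (factors 0.947 to 1.09), filterByExpr (20070 of 34075 genes kept) and a common biological coefficient of variation of 7.39%. Standard errors (SE) of log2 fold changes were derived from the F statistic, as |log2 fold change| over its square root. The fit was tested on simulated data. DESeq2 1.42.0 was an alternative. FPKM served for lengths and for ZISO.

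The members and lists were chosen with earlier results of these data known. The 15 lists were planned as copies of earlier ones, which were not used here, and were rebuilt after the data were seen. Names follow published nomenclature. Of 92 pairs of name and identifier, 87 passed a check by name, chromosome and rank against RefSeq SLM_r2.1, and the seed marker was not among the 87. The rule named every list member among the 125 and, per WT class, up to 2 unnamed genes of highest WT breaker level; other unnamed genes were singled out after their values were seen. Floors cover counting error only. No gene or promoter sequence is shown.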

Additional observations from a re-analysis of the deposited data

How the results depend on the processing

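The number of genes chosen moved with the limits of the rule, to 54 with a breaker ratio of at most 0.4 and to 72 with a narrower later window that starts at 0.8. Scaling by TMM in place of column totals gave 180 genes, 114 of them among the 125, and WT fell in 151 of the 180 (83.9%); of these 180, 5 rather than 3 were higher in late slnor than in WT at breaker. Column totals put the median log2 ratio of slnor to WT over the 12815 genes of at least 5 CPM in WT at breaker at 0.15 at breaker and 0.06 later, so the choice depends on the scaling. Leaving out 1 library gave 121 to 130 genes, at least 114 of them among the 125. In the fits without 1 library, 112 to 114 of the 125 were lower and 6 higher with stage in WT, 60 to 63 lower and 35 to 38 higher in slnor, and 115 to 117 lower and 3 higher in late slnor than in WT at breaker. Library totals alone gave 71 lower and 34 higher with stage in slnor. With DESeq2, without the low-count filter, or with only the 2 groups compared, 113 were lower and 6 higher in WT. BCH2 was the 1 named gene whose WT call was lost, with adjusted p of 0.178 and 0.0867 without WT breaker replicates 2 and 3, 0.254 without late WT replicate 3, and 0.0514 and 0.0511 without late slnor replicates 1 and 2. No result changed sign.

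Replicate numbers are shared between groups by the labels, but deviations of same-numbered libraries correlated at only −0.0276 to 0.0199, so the numbers do not pair them. With the replicate number as a block, 113 were lower and 6 higher in WT, 63 lower and 38 higher in slnor, and 116 lower and 3 higher in late slnor than in WT at breaker.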
